A study of Danio rerio with 15 samples.

Results

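The nuclear receptor genes outside the ROR and Rev-erb families were read from the authors' deposited table of zebrafish exposed to DMSO or to tris(4-chlorophenyl)methanol (TCPMOH). Members were taken by gene symbol, as the names of the NR0 to NR6 subfamilies and of the retinoid, thyroid hormone, vitamin D, steroid, PPAR, HNF4 and estrogen-related receptors, with a base mean (the mean normalized count over libraries) of at least 20. The header does not name the libraries behind the base mean, which are read as those of the comparison. The rule gave 60 of the 36351 entries, of which 57 are nuclear receptors in 15 classes. The other 3 matched by their letters alone. They are thrap3a and thrap3b, related to a splicing-associated protein, and nr2c2ap, a receptor-associated protein, and they are described apart.

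The animals were wild-type AB zebrafish, exposed through the water from 96 to 100 hours post fertilization, for 4 hours, and collected whole in pools of 8 to 10. The control group received 0.01% v/v DMSO and the exposed group 50 nM TCPMOH, a chlorinated contaminant, with 5 pools in each. Another group of 5 pools, given 50 nM of tris(4-chlorophenyl)methane, was not analysed here. All comparisons below rest on group statistics, since the authors' deposited table has no value for single pools, so spread is given as its standard error (SE) and no pool could be left out. A negative log2 fold change is read as lower with TCPMOH. Which group is the numerator is left unsaid in the header, and every direction would swap under the other reading.

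Nuclear receptors are transcription factors that mostly bind small lipophilic ligands, such as retinoic acid, thyroid hormone, steroids, bile acids and fatty acids, and that bind DNA alone or in pairs. Retinoid X receptors are the shared partners of the receptors for retinoic acid, thyroid hormone, vitamin D, oxysterols and fatty acids. In fish larvae these receptors pattern the hindbrain and fins, drive the thyroid-dependent transition, and govern lipid handling in liver and gut and the stress axis. Many zebrafish receptor genes are present as duplicates from the genome duplication of teleost fish, named a and b.

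Of the receptor genes, rxraa rose and no other member passed the test. An adjusted p was given for 56 of the 60 members, and 1 was called higher and 0 lower (adjusted p under 0.05, DESeq2 Wald test with Benjamini-Hochberg adjustment), a share of 1.79%. Over all 19257 tested genes the share called was 2.68%, with 0.758% higher and 1.92% lower, so the members' share was near the background. At an unadjusted p under 0.05 there were 4 members (rxraa, nr0b2a, pparaa and nr4a3, the last 3 of them with negative values), 7.14% of those tested, against 13% of all tested genes. Among the 57 receptors 31 values were positive and 26 negative, with a median log2 fold change of 0.01, against -0.0016 over all tested genes. The median absolute log2 fold change was 0.09 for the receptors and 0.08 for all tested genes. After a shift that makes the summed values of both groups equal, 39 receptors were positive and 18 negative. That shift adds the same 0.048 to every gene, so all tested genes moved up with the receptors.

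**Figure D1:**
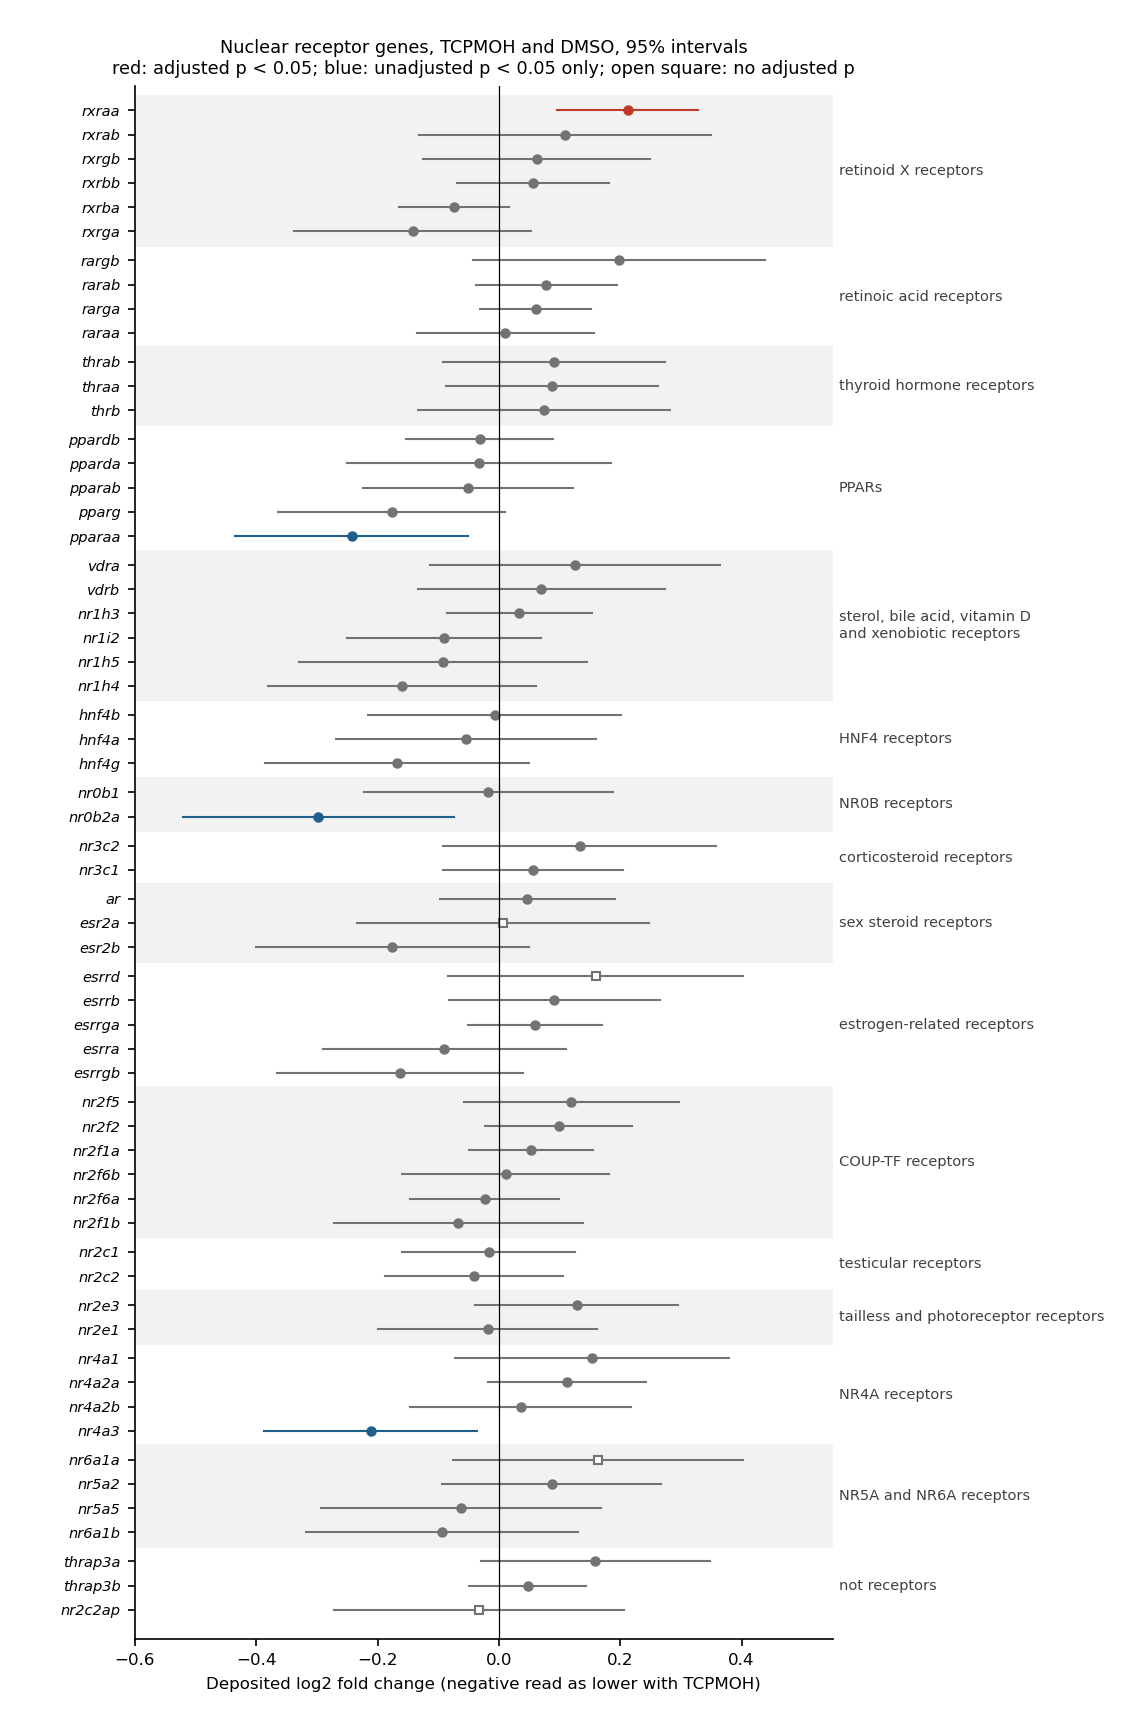
Deposited log2 fold changes (x axis) of the 60 members by class, with 95% intervals (1.96 SE to either side). Filled circles have an adjusted p and open squares have none; rxraa (red) is the only member with an adjusted p under 0.05, and the members in blue, nr0b2a, pparaa and nr4a3, have an unadjusted p under 0.05 only.

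The gene rxraa encodes a retinoid X receptor alpha, a partner in most of the ligand-dependent pairs of the family. In the authors' deposited table it had a base mean of 784 and a log2 fold change of 0.21 (SE 0.0592; DESeq2 Wald adjusted p = 0.0182), 1.16-fold higher with TCPMOH. It lies on chromosome 21 from 17767991 to 17947564 on the plus strand, in the coordinates of the authors' deposited table, for which no source used here names a genome build. No other entry overlapped it. The call was lost when the trend of fold change with genomic span, described below, was removed (0.16, adjusted p = 0.168 from the DESeq2 statistics). It was also lost when the Wald statistics of all genes were divided by their own robust spread of 1.30 (adjusted p = 0.316). That division left 121 calls over all tested genes, against 516 before it. The deposited adjusted p of rxraa was not under 0.01. The call was kept with the sums of both groups made equal, where rxraa stood at 0.26 (adjusted p = 0.00146 from the DESeq2 statistics). Centring on the median kept it as well (0.0171), as did adjusting over all genes with a p-value (0.0301). In whole animals, more cells of a type and more RNA per cell cannot be told apart.

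The other retinoid X receptor genes did not follow in one direction. In the authors' deposited table, the duplicate rxrab stood at 0.11 (SE 0.123; DESeq2 Wald adjusted p = 0.757), with a base mean of 86.6. Its 95% interval on the deposited scale was wide, from -0.13 to 0.35. With the shrinkage toward 0 that is described below undone, rxrab stood at 0.19 with a larger SE of 0.215. The beta genes were at -0.07 for rxrba (SE 0.0463) and 0.06 for rxrbb (SE 0.0638) in the authors' deposited table. The gamma genes, which in fish are prominent in the nervous system, were at -0.14 for rxrga (SE 0.0996) and 0.06 for rxrgb (SE 0.0955) in the authors' deposited table. The gene rxrba had the highest base mean of all members, 2971, and the smallest SE among them in the authors' deposited table. Its 95% interval from -0.16 to 0.02 was correspondingly narrow. Differences between these genes were not tested, since the deposited statistics do not give the covariance of genes measured in the same pools.

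Receptors for retinoic acid and thyroid hormone, which pair with retinoid X receptors, all had positive values that did not pass the test. Among the 4 retinoic acid receptor genes, values in the authors' deposited table ran from 0.01 for raraa (SE 0.0747) to 0.20 for rargb (SE 0.123; DESeq2 Wald adjusted p = 0.510). The gamma gene rarga, with a base mean of 2269, had a value of 0.06 (SE 0.0464) and rarab of 0.08 (SE 0.0597) in the authors' deposited table. Their median was 0.07, and it was 0.01, with raraa at -0.05, when the span trend was removed. The thyroid hormone receptor genes lay close together in the authors' deposited table, with thraa at 0.09 (SE 0.0892), thrab at 0.09 (SE 0.0932) and thrb at 0.07 (SE 0.106). Their median of 0.09 became 0.03 with the span trend removed, and their adjusted p in the authors' DESeq2 test ran from 0.729 to 0.817.

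PPARs bind fatty acids and their derivatives, and PPAR alpha turns on fatty acid oxidation. All 5 members had negative values in the authors' deposited table, and 0 were called. After the shift to equal sums pparda and ppardb, each at -0.03 before it, were slightly positive, at 0.015 and 0.016. With the span trend removed all 5 were negative, with a median of -0.09 against -0.05 in the deposited values. The lowest was pparaa at -0.24 (SE 0.0980; unadjusted p = 0.0134, DESeq2 Wald adjusted p = 0.203), with a base mean of 562 in the authors' deposited table. It lies on the minus strand of chromosome 4, from 18607703 to 18649344. Its duplicate pparab had a value of -0.05 (SE 0.0884), with a base mean of 524, in the authors' deposited table. The adipocyte regulator gene pparg was at -0.18 (SE 0.0954; DESeq2 Wald adjusted p = 0.420) by the authors' deposited table.

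The receptors for bile acids, sterols and foreign compounds and the liver and gut regulators of the HNF4 family were called in 0 cases, with 0 at an unadjusted p under 0.05. The bile acid receptor FXR gene nr1h4 stood at -0.16 (SE 0.113; DESeq2 Wald adjusted p = 0.582) in the authors' deposited table. Its relative nr1h5 and the xenobiotic receptor gene nr1i2 were both at -0.09 (SE 0.121 and 0.0816) in the authors' deposited table. The oxysterol receptor gene nr1h3 was near 0 at 0.03 (SE 0.0609), in the authors' deposited table. Vitamin D receptor genes were on the positive side in the authors' deposited table, at 0.13 for vdra (SE 0.122; DESeq2 Wald adjusted p = 0.711) and 0.07 for vdrb (SE 0.104). The HNF4 genes ranged in the authors' deposited table from -0.17 for hnf4g (SE 0.111; DESeq2 Wald adjusted p = 0.548) through -0.05 for hnf4a (SE 0.109) to -0.0071 for hnf4b (SE 0.106), and hnf4b was positive at 0.04 after the shift to equal sums.

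The lowest value of any member belonged to nr0b2a, which encodes SHP, a receptor without a DNA-binding domain that represses other receptors and in mammals is a target of FXR. In the authors' deposited table it stood at -0.30 (SE 0.114; unadjusted p = 0.00891, DESeq2 Wald adjusted p = 0.162), with a base mean of 273. The whole entry of nr0b2a, on chromosome 16 from 54875530 to 54880550, lies inside that of fzd6, a Frizzled receptor gene on the same strand with a base mean of 469.5 and a log2 fold change of 0.05 in the authors' deposited table. How reads were divided between them is uncertain. The same holds for nr1h3, whose entry lies inside that of sinhcafl (base mean 1166 against 949 in the authors' deposited table), and for rxrab, inside that of kat5b (1171 against 86.6), both on the same strand. In all, 33 of the 60 members overlapped another entry, 9 of them on the same strand and 3 of these with an entry of higher base mean. All these overlaps are of whole entries from start to end, introns included. Exons were not compared, so whether any reads were shared is unknown. Some of the overlapping entries, such as kat5b, pimr168 and atp2b2, are annotated over spans that take in several members. Its relative nr0b1, the DAX1 gene of the adrenal and gonadal axis, was at -0.02 (SE 0.105) in the authors' deposited table, and slightly positive at 0.03 after the shift to equal sums and 0.02 with the span trend removed.

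Intestine and liver, where many of these metabolic receptors are known to act, were checked by marker genes. The 6 intestine markers, among them fabp2 and vil1, were all negative with a median of -0.22, and the 6 liver markers, among them fabp10a and tfa, were all negative with a median of -0.11, or 5 of 6 liver markers after the shift to equal sums. Negative values were not limited to these organs, since all 6 skeletal muscle markers were negative as well with a median of -0.13 (5 of 6 after the shift), and the skin markers had a median of -0.13 with 4 of 6 negative. Medians were -0.02 for neuron markers and 0.07 for both erythrocyte and photoreceptor markers. The summed base means were 20750 for the intestine list and 82904 for the liver list, and levels per group are not in the authors' deposited table. Of the intestine and liver markers, apoa4a was called lower, and of the photoreceptor markers gnat1 was called higher and pde6c lower. The part of the intestine and liver markers in the values of the PPAR, FXR, HNF4 and SHP genes was not tested. The 42 markers of 7 tissues were all detected, with base means from 102 to 514369.

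Of the corticosteroid and sex steroid receptor genes 0 were called, and 0 had an unadjusted p under 0.05. The glucocorticoid receptor gene nr3c1, at the centre of the stress response, had a base mean of 1798 and stood at 0.06 (SE 0.0761; DESeq2 Wald adjusted p = 0.805) by the authors' deposited table. The mineralocorticoid receptor gene nr3c2 was at 0.13 (SE 0.115; DESeq2 Wald adjusted p = 0.671) by the authors' deposited table. The androgen receptor gene ar was at 0.05 (SE 0.0738; DESeq2 Wald adjusted p = 0.834), and at -0.0070 with the span trend removed, starting from the authors' deposited table. Of the estrogen receptor genes, esr2b was at -0.18 (SE 0.114; DESeq2 Wald adjusted p = 0.538), and esr2a, at 0.0074, had no adjusted p at a base mean of 24.0 in the authors' deposited table. The genes esr1 and pgr, the estrogen receptor alpha and progesterone receptor genes, fell below the minimum with base means of 12.4 and 8.54 in the authors' deposited table.

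Estrogen-related receptors, which act without a known estrogen ligand and regulate energy metabolism, spread to both sides in the authors' deposited table, from -0.16 for esrrgb (SE 0.104; DESeq2 Wald adjusted p = 0.524) to 0.16 for esrrd (SE 0.124), the latter without an adjusted p. The mitochondrial regulator gene esrra stood at -0.09 (SE 0.102) and esrrga, with a base mean of 1294, at 0.06 (SE 0.0564) in the authors' deposited table. The gene esrrb was at 0.09 (SE 0.0886) by the authors' deposited table.

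Of the orphan receptors of development in the COUP-TF, testicular and tailless classes 0 were called, and 0 had an unadjusted p under 0.05. COUP-TF genes, which act in venous and atrial identity and in neural patterning, ranged in the authors' deposited table from -0.07 for nr2f1b (SE 0.105; DESeq2 Wald adjusted p = 0.833) to 0.12 for nr2f5 (SE 0.0903; DESeq2 Wald adjusted p = 0.615). With a base mean of 2320, nr2f2 had a value of 0.10 (SE 0.0618), and nr2f1a, with 2008, one of 0.05 (SE 0.0523) in the authors' deposited table. In the authors' deposited table the duplicates nr2f6a and nr2f6b were at -0.02 (SE 0.0628) and 0.01 (SE 0.0868), and nr2f6a was slightly positive after the shift to equal sums and with the span trend removed. The testicular receptor genes nr2c1 and nr2c2 were at -0.02 and -0.04 in the authors' deposited table, and both were positive after the shift to equal sums. The neural stem cell gene nr2e1 was at -0.02 (SE 0.0921), with a positive value after the shift to equal sums and with the span trend removed, and nr2e3, which in photoreceptors sets the rod fate, was at 0.13 (SE 0.0855; DESeq2 Wald adjusted p = 0.552) in the authors' deposited table. Of the 6 photoreceptor markers, 4 were positive and 2 negative with a median of 0.07, gnat1 was called higher and pde6c lower, their summed base mean was 98453, and their part in the nr2e3 value was not tested.

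The NR4A genes are immediate early genes that need no ligand, and their values split. In the authors' deposited table nr4a3 stood at -0.21 (SE 0.0899; unadjusted p = 0.0185, DESeq2 Wald adjusted p = 0.238), while nr4a1 was at 0.15 (SE 0.115; adjusted p = 0.614), nr4a2a at 0.11 (SE 0.0665) and nr4a2b at 0.04 (SE 0.0931). The entry of nr4a3 lies on the plus strand of chromosome 16, from 27336335 to 27369782. Of the 4 NR4A genes 0 were called. In the NR5A and NR6A classes nr5a2, a regulator of liver and pancreas genes, was at 0.09 (SE 0.0922) and nr5a5 at -0.06 (SE 0.118) in the authors' deposited table. The gene nr6a1b, of the germ cell nuclear factor class, was at -0.09 (SE 0.115; DESeq2 Wald adjusted p = 0.782), and nr6a1a at 0.16 (SE 0.122) by the authors' deposited table, which gives it no adjusted p. The nr5a1 and nr6a1 genes neighbour each other on the same strand in both duplicated regions. They are 6.80 kb apart on chromosome 8 for nr5a1a and nr6a1a and 15.1 kb apart on chromosome 21 for nr6a1b and nr5a1b, while both nr5a1 genes, of the steroidogenic factor class, fell below the minimum.

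The entries that are no receptors were not called, with thrap3a at 0.16 (SE 0.0962; DESeq2 Wald adjusted p = 0.497), thrap3b at 0.05 (SE 0.0495; DESeq2 Wald adjusted p = 0.734) and nr2c2ap at -0.03 (SE 0.122) in the authors' deposited table. Just inside the minimum were nr6a1a and nr2c2ap with base means of 40.5 and 40.1, esrrd with 32.6 and esr2a with 24.0 in the authors' deposited table. Just outside were nr5a1b with 13.4, esr1 with 12.4, nr5a1a with 12.04, pgr with 8.54 and nr0b2b with 2.82 in the authors' deposited table. The authors' test gave no adjusted p at these means, the lowest mean with one being 49.1.

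**Figure D2:**
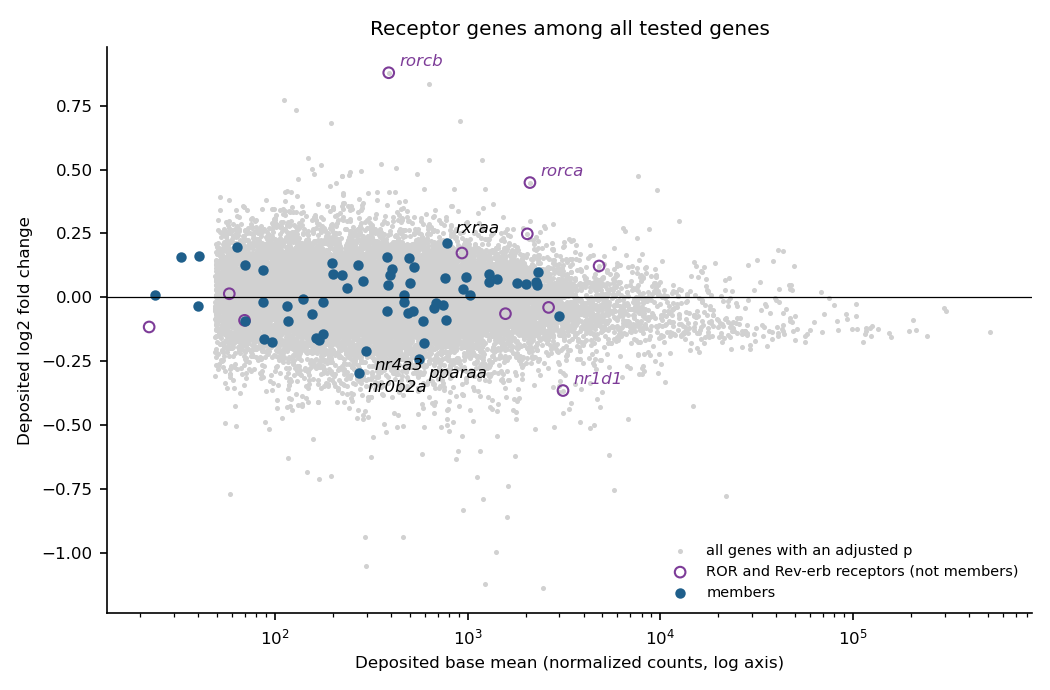
Deposited log2 fold change (y axis) against base mean in normalized counts (x axis, log scale) for all 19257 tested genes (grey), the 60 members (blue) and the ROR and Rev-erb receptors (purple circles). The members lie between -0.30 and 0.21, while rorcb, rorca and nr1d2a lie above and nr1d1 below that range.

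The size of change that could have been called depended on the SE of each gene. The smallest absolute Wald statistic of a called gene was 3.21, so that a receptor with the median SE of 0.0932 would have needed an absolute deposited log2 fold change of 0.30. The requirement on that scale ran from 0.15 for rxrba to 0.40 for esrrd, had it been tested. With the shrinkage that the folds appear to carry undone, it ran from 0.15 for rxrba to 0.76 for esrrd, with a median of 0.36. The 95% intervals of 56 of the 57 receptors lay within 0.5 log2 units of 0, a 1.41-fold change, and those of 38 lay within 0.3, a 1.23-fold change. With the inferred shrinkage toward 0 undone, intervals of 44 receptors lay within 0.5 and those of 13 did not. A deposited SE can stem from a smaller or a larger undone SE, and the smaller was taken for every gene. At low base means, as for esr2a and esrrd, the larger may apply, so their intervals and requirements may be understated. In the version with shrinkage undone nr0b2a stood at -0.43 and pparaa at -0.30, and rxraa at 0.23. By contrast, of the 11 ROR and Rev-erb receptor genes with a base mean of at least 20, 10 were tested and 3 called in the authors' deposited table, 2 higher and 1 lower. The difference in shares from the 1 of 56 members was not tested.

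Both copies of a duplicated receptor gene were members in 15 pairs, with the same sign in 8 and opposite signs in 7. This is close to the even split that unrelated signs would give, and in 2 of the 15 pairs both values exceeded their own SE. The median absolute difference of the log2 fold changes within a pair was 0.12. The largest difference, 0.26, was between nr6a1a and nr6a1b. After the shift to equal sums 9 pairs had the same sign. The depth behind the copies differed as well, since the base mean of rarga was 35.7 times that of rargb in the authors' deposited table and that of vdrb 20.4 times that of vdra. Base means also scale with transcript length, so these ratios are not ratios of expression.

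**Figure D3:**
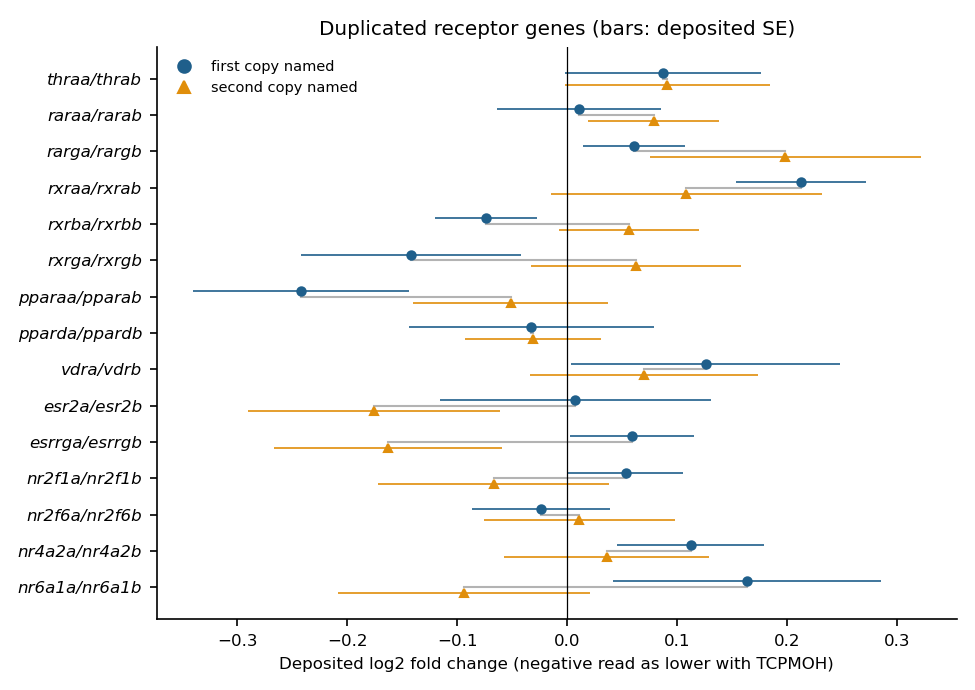
Deposited log2 fold changes (x axis) of the 15 duplicated receptor pairs in which both copies were members. Circles mark the first copy named, triangles the second, and bars the deposited SE; in 8 pairs both copies lie on the same side of 0.

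Receptor genes were longer at the median than all tested genes, though not in every class, and long genes had higher fold changes in this comparison. The median genomic span (start to end, introns included) was 33.9 kb for the receptors and 19.6 kb for all tested genes. By class it was 157 kb for the retinoic acid receptor genes and 144 kb for the thyroid hormone receptor genes. Class medians below that of all tested genes were 19.4 kb for NR4A, 15.5 kb for COUP-TF, 6.6 kb for tailless and photoreceptor and 3.98 kb for NR0B receptors. In 20 bins of genes ordered by span, the median log2 fold change was -0.04 in the bin of the shortest genes and 0.06 in that of the longest. The gene rxraa spans 180 kb. With each bin's median subtracted, an alternative chosen after seeing the data, 29 of the 54 tested receptors were positive, with a median of 0.0059, and 0 members were called.

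**Figure D4:**
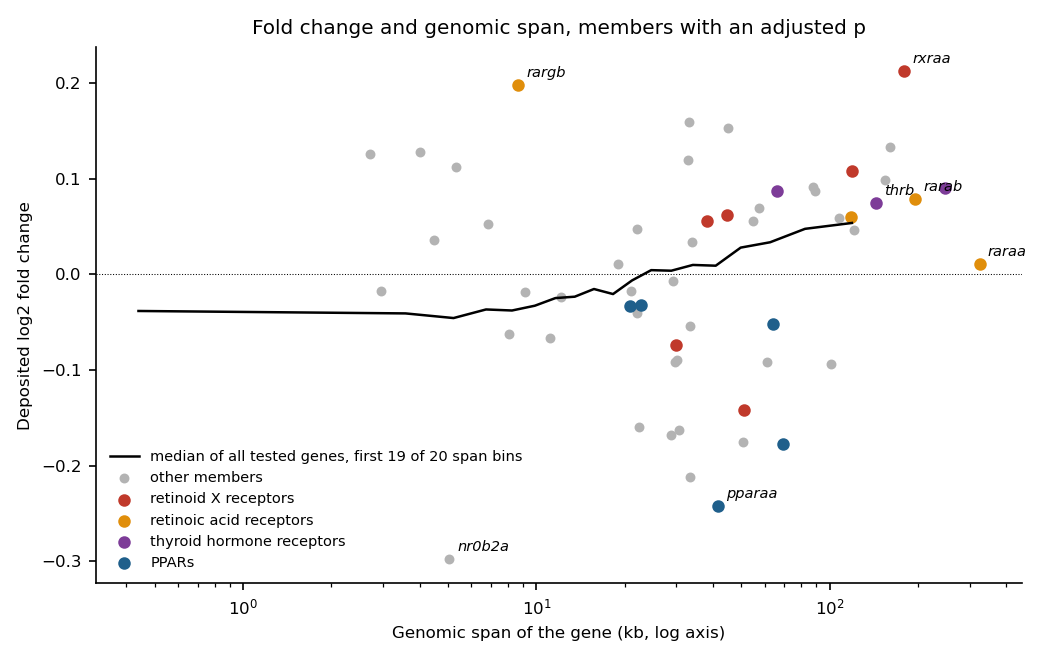
Deposited log2 fold change (y axis) against genomic span in kb (x axis, log scale) for the 56 members with an adjusted p. The line joins the medians of all tested genes by span; it runs over the first 19 of 20 bins, from near -0.04 to 0.05 at its right end, and rxraa lies above it at 0.21.

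Cofactors, ligand supply and known target genes of the receptors were taken from 10 lists. Of their 112 tested genes that are no members, 2 were higher and 7 lower, a share of 8.04% against 2.68% over all tested genes. At an unadjusted p under 0.05 there were 24 of the 112, or 21.4%, against 13% of all tested genes. By list these were 7 of 15 PPAR targets and 5 of 11 xenobiotic and vitamin D targets. There were 3 each in the glucocorticoid, the HNF4 and the oxysterol and bile acid lists, and fewer in the others. The lists were chosen with earlier results known, so the larger shares are a description. When the Wald statistics were divided by their robust spread 1 of the list genes, cyp26c1, was still called. The other called list genes, per1a and trpv6 among them, lost the call.

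The coregulators were called in 0 cases, with ppargc1b at an unadjusted p under 0.05. Of 14 tested coactivators 10 were negative with a median of -0.0077, and 3 were after the shift to equal sums. The gene ppargc1b, a coactivator of mitochondrial genes, was lowest at -0.24 (SE 0.0830; DESeq2 Wald adjusted p = 0.0922) in the authors' deposited table. It was called lower with the span trend removed (adjusted p = 0.0398 from the DESeq2 statistics). Of 12 tested corepressors 10 were positive with a median of 0.06, with 0 at an unadjusted p under 0.05. The corepressor gene ncor1 was at 0.03 (SE 0.0545) in the authors' deposited table.

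Retinoic acid targets and supply genes were partly lower. Of 16 tested, 2 were lower and 0 higher, with a median of -0.08. They were the retinoic acid hydroxylases, with cyp26c1 at -0.44 (SE 0.0886; DESeq2 Wald adjusted p = 0.000149) and cyp26a1 at -0.35 (SE 0.0959; DESeq2 Wald adjusted p = 0.0173), by the authors' deposited table. For cyp26a1 the call was lost once the sums were made equal (adjusted p = 0.0570 from the DESeq2 statistics) and with the span trend removed (0.0558), while cyp26c1 kept it under both and under the spread-divided statistics (0.0286). The remaining hydroxylase gene, cyp26b1, stood at 0.14 (SE 0.0737; DESeq2 Wald adjusted p = 0.394) in the authors' deposited table, a value chosen after it was seen. In the thyroid list 0 of 9 tested genes were called and 7 were negative, with 0 at an unadjusted p under 0.05, and klf9, a direct target of thyroid hormone and glucocorticoid receptors, was at -0.10 (SE 0.118) in the authors' deposited table.

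Glucocorticoid targets were called in 1 of 12 cases, the clock gene per1a at -0.41 (SE 0.104; DESeq2 Wald adjusted p = 0.00766) by the authors' deposited table. The classical target fkbp5 was at 0.05 (SE 0.123; DESeq2 Wald adjusted p = 0.890) in the authors' deposited table. With members such as sgk1 at -0.29 (SE 0.0936; DESeq2 Wald adjusted p = 0.0631) in the authors' deposited table, chosen after its value was seen, the list's median was -0.09. With the span trend removed sgk1 was called lower too (adjusted p = 0.0330 from the DESeq2 statistics), making 2 of 12. Of 15 tested PPAR targets, 1 was higher and 0 lower, and 10 were negative with a median of -0.11. At an unadjusted p under 0.05 there were 7, all negative except pdk4. The called gene was pdk4, a kinase that limits pyruvate oxidation, at 0.27 (SE 0.0764; DESeq2 Wald adjusted p = 0.0241) in the authors' deposited table, and it lost the call with the span trend removed (adjusted p = 0.0643 from the DESeq2 statistics). The fatty acid-binding protein gene fabp2, an intestine marker as well, stood at -0.33 (SE 0.105; DESeq2 Wald adjusted p = 0.0563) in the authors' deposited table.

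Targets of the oxysterol and bile acid receptors included a called pair. The genes abcg5 and abcg8 encode the partner subunits of a transporter that exports sterols from enterocytes and hepatocytes. In the authors' deposited table abcg8 stood at -0.51 (SE 0.117; DESeq2 Wald adjusted p = 0.00139), or 1.43-fold lower, and its base mean was 93.6. Its partner abcg5 was at -0.47 (SE 0.118; DESeq2 Wald adjusted p = 0.00535), or 1.39-fold lower, and its base mean was 109 in the authors' deposited table. They lie on opposite strands of chromosome 13 in the authors' deposited table. The entry of abcg8 runs from 10926528 to 10945394 on the minus strand, and that of abcg5 from 10945337 to 10968607 on the plus strand. The genes thus point away from each other, and their entries overlap where both start. Both kept the call after the shift to equal sums and with the span trend removed, and lost it under the spread-divided statistics (adjusted p = 0.0909 and 0.179 from the DESeq2 statistics). The other 12 tested genes of the list were not called, among them the oxysterol target abca1a at -0.07 (SE 0.102) and the bile acid synthesis gene cyp7a1 at 0.07 (SE 0.121) in the authors' deposited table. The intestine markers with a median of -0.22 lay on the same side of 0 as abcg5 and abcg8, and their part in these calls was not tested.

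Among 11 tested targets of the xenobiotic and vitamin D receptors, 1 was higher and 1 lower. At an unadjusted p under 0.05 there were 5, all negative except trpv6. The calcium channel gene trpv6, a vitamin D target in mammals, was higher at 0.42 (SE 0.110; DESeq2 Wald adjusted p = 0.00851), and cyp2y3, a cytochrome P450 gene, was lower at -0.30 (SE 0.0835; DESeq2 Wald adjusted p = 0.0154) in the authors' deposited table. For cyp2y3 the call was lost once the sums were made equal (adjusted p = 0.0606 from the DESeq2 statistics). The vitamin D hydroxylase gene cyp24a1 and the xenobiotic target cyp3a65 were at -0.05 (SE 0.0987) and -0.15 (SE 0.116), without passing, in the authors' deposited table. All 11 tested HNF4 targets were negative with a median of -0.15, although 8 were after the shift to equal sums and 9 with the span trend removed. Among them apoa4a, an apolipoprotein gene that is an intestine marker too, was called at -0.41 (SE 0.113; DESeq2 Wald adjusted p = 0.0162) in the authors' deposited table. With the span trend removed apoa4a just missed the call (adjusted p = 0.0503 from the DESeq2 statistics). The HNF4 list also holds fabp10a and serpina1, which are liver markers, so these lists are not independent. The estrogen target list had 0 tested genes, with base means up to 14.5, and cyp19a1b, the brain aromatase gene, had a base mean of 7.26 in the authors' deposited table.

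**Figure D5:**
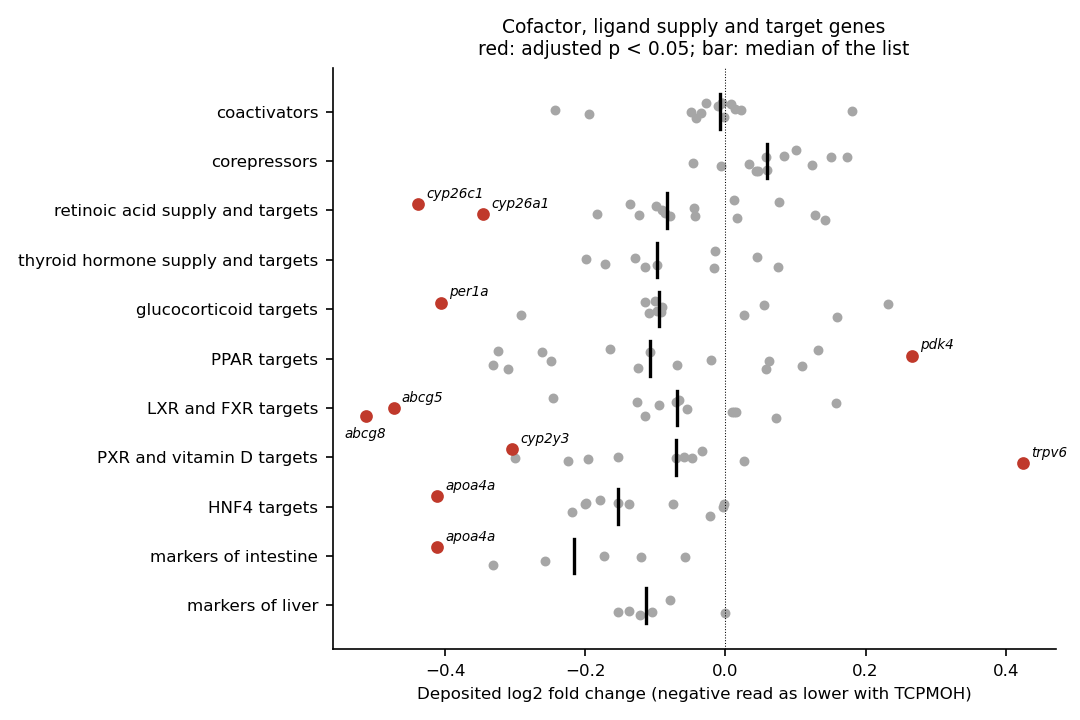
Deposited log2 fold changes (x axis) of the tested genes in 9 lists of receptor cofactors, ligand supply and targets, with intestine and liver markers below. Each point is a gene, red points have an adjusted p under 0.05 and are named, and vertical bars are list medians, which run from -0.22 for intestine markers to 0.06 for corepressors; the vertical placement of points within a list is arbitrary.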

How the data were processed

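Messenger RNA of whole pooled embryos was sequenced after a stranded library preparation, per the labels' protocols. The authors used FastQC, cutadapt, STAR, featureCounts and DESeq2, per the submitters' processing notes, which give no versions. The table is the authors' DESeq2 result for DMSO and TCPMOH, with identifiers of Ensembl 99 and gene models of GTF version 4.3.2, per the file headers. The base mean deposited by the authors is a signal of DESeq2-normalized counts. Fold changes were deposited on a log2 scale with an SE on that scale, and the deposited Wald score is their quotient. Each deposited p-value is two-sided, with a Benjamini-Hochberg adjustment over 19257 genes, recomputed to within 5.17e-06. Depth per library is unknown here. The table has 0 columns of single libraries, so count models, a replicate block and leaving out pools were not run. P-values measure the spread between pools, of which some may share an experiment.

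Members and lists were chosen with earlier results of these data known. Values were given for members called or with an unadjusted p under 0.05, the extremes of each class, and the members of highest base mean. Of the lists, values were given for called genes and preset targets. Not each of these genes has its base mean, SE and adjusted p in the text. Other list, marker and ROR or Rev-erb genes named in the text were chosen after their values were seen. The class of nr2c2ap was set after the table was seen. All 60 members' Ensembl identifiers matched the gene name table. The shift to equal sums was 0.048, worked out from base means and folds. The undone shrinkage assumes a normal prior with a standard deviation of 0.248, inferred from the largest SE of 0.124. The recomputed statistics were tested on simulated data. The tools were matplotlib 3.10.9, scipy 1.17.1, Python 3.11.15, numpy 2.4.6 and pandas 2.3.3.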

Additional observations from a re-analysis of the deposited data

How the results depend on the processing

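The count of members called higher stayed at 1, and that of members called lower at 0, when p-values were adjusted over all genes with a p-value or over genes of base mean at least 20, after the shift to equal sums, after centring on the median, at an adjusted p under 0.1, with a base mean minimum of 50 or none, and among the 27 members that overlap no other entry. The base mean settings could not change these counts, since the genes they drop or add have no adjusted p. The count of members called higher was 0 with the Wald statistics divided by their robust spread, 0 with the span trend removed and 0 at an adjusted p under 0.01. Over all 19257 tested genes 516 were called, and 121 were after division by the robust spread. After the shift to equal sums 355 of all tested genes were called higher and 217 lower. Members with an unadjusted p under 0.05 numbered 10 after the shift to equal sums, 2 after division by the robust spread and 7 with the span trend removed. Shares of all tested genes at that unadjusted threshold are not given for these settings. The members' median log2 fold change of 0.02 was 0.07 after the shift, which raises every gene by the same 0.048, and 0.01 with the span trend removed.

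Of 344 values of single members under these alternatives with a recomputed test, 329 kept their direction and their side of the threshold and 13 changed sign, in 10 members. Only the shift, the centring and the span trend could change a sign, since the other alternatives with a test keep the deposited fold change. Undoing the shrinkage scales each value by a positive factor, so all 56 signs were bound to stay, and no test was made. The members that changed sign after the shift to equal sums were hnf4b (0.041), nr0b1 (0.030), nr2c1 (0.031), nr2c2 (0.0069), nr2e1 (0.029), nr2f6a (0.024), pparda (0.015) and ppardb (0.016). With the span trend removed they were ar (-0.0070), nr0b1 (0.023), nr2e1 (0.014), nr2f6a (0.0012) and raraa (-0.045). None of these had been called. No paired analysis was possible because the deposited table holds no value per library. For the same reason no replicate could be left out and no other count tool was run. The genes rargb, rxrab, vdra and the members without an adjusted p have low base means, and their SEs lie near the largest of 0.124. An SE of that size is not particular to low means, since cebpd had 0.124 at a base mean of 2298.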
